A study of Mus musculus with 4 samples.

Results

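The solute carriers are described here in mouse embryonic fibroblasts, the connective tissue cells grown from embryos, that carried or lacked Xiap (X-linked inhibitor of apoptosis, a caspase inhibitor). A probe set, the group of short probes that reports a transcript on an Affymetrix array, was a member when the platform annotation gave it exactly 1 gene symbol and that symbol began with Slc and a digit. This took 185 of the 12488 probe sets, for 151 genes. The rule itself uses no measured value. Total RNA was hybridised to 4 U74Av2 arrays, 1 for each of 4 groups: wild-type cells left unstimulated, wild-type cells given TNFa, XIAP knockout cells left unstimulated and XIAP knockout cells given TNFa. The cells were confluent in DMEM with fetal calf serum, and TNFa (tumour necrosis factor, TNF below) was added at 20 ng/ml for 4 hours. The labels give no strain, sex, embryo number, passage or number of cultures behind each genotype, and do not describe the knockout allele. The comparisons ask how the fibroblasts respond to TNF, and whether the cells without Xiap differ at rest or in that response.

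Solute carriers move small molecules across membranes by facilitated diffusion, exchange or coupling to an ion gradient. Those of the plasma membrane bring in amino acids, glucose, phosphate, metals and nucleosides, and those inside the cell serve mitochondria, the Golgi apparatus and lysosomes. Some work only as pairs: Slc3a2, the 4F2 heavy chain, carries light chains such as Slc7a5 to the cell surface. TNF acts largely through the transcription factors NF-kB and AP-1, and fibroblasts exposed to it make cytokines and remodel their surroundings.

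Values are MAS5 signals, a linear measure of probe set brightness, given in the order unstimulated and then TNF. A signal of 92.5, the 40th percentile over all arrays, served as a floor: lower signals were raised to it for fold changes, and a gene was measured in a comparison if at least 1 of its arrays was above it. A fold change against an array at the floor is written as at least that size. Where a gene had several probe sets, the brightest was used. With 1 array per group a difference between 2 arrays has no replicate check and no test, so genes at least 2-fold apart were counted beside the same share of all genes. The p-values come from an additive limma fit of genotype and TNF over the 4 arrays, adjusted by Benjamini-Hochberg over 6174 genes. That fit has 1 residual degree of freedom per gene and no replicate cultures behind it, and its genotype effect cannot be told apart from whatever else set the knockout cultures off from the wild-type ones. In bulk RNA, fewer cells of a type and less RNA per cell cannot be told apart either. Signals of different probe sets are not on a common scale and are not compared with each other here.

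The targeted gene did not set the genotypes apart. The brightest of 3 Xiap probe sets read 239 and 126 in wild-type cells and 181 and 120.1 in knockout cells, and the other 2 read at most 115 and 63.6 on any array, near or below the floor. Whether these probes lie in the deleted part of the gene is not stated in the labels, so the genotypes rest on the labels alone, and knockout below means the arrays labelled so.

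The arrays shared a trimmed mean of 500.3, but their median signals were 183 and 151 in wild-type cells and 179 and 173 in knockout cells. The wild-type array with TNF thus had the lowest median. Of 9 fibroblast markers, 8 were above the floor on all 4 arrays, among them Col1a1, a collagen chain (25901 and 24922 in wild-type cells and 22927 and 21983 in knockout cells). The exception, Vim, was listed at 83.0 and 42.1 in wild-type cells and 94.5 and 50.7 in knockout cells. The summed fibroblast signal ranged from 60129 to 63524. Ptprc, which marks blood cells, did not exceed 9.2, and Epcam and Krt8, which mark epithelium, did not exceed 6.4 and 21.4. Cdh1, another epithelial marker, was above the floor on all arrays, at 459.8 and 296.8 in wild-type cells and 530.5 and 489.5 in knockout cells. Of 6 macrophage markers 3 were above the floor on all arrays, with a summed signal of 1812 to 2946, and Cd14 was among them (1899.7 and 1534 in wild-type cells and 2187 and 2402 in knockout cells). None of 4 endothelial markers was above the floor on all arrays (summed signal 152 to 339), and the same held for the 3 adipocyte markers, although Lpl stood at 977 and 667 in wild-type cells and 12.2 and 43.9 in knockout cells. Of 4 skeletal muscle markers 2, Myod1 and Myog, were above the floor on all arrays (summed signal 443 to 515). The same held for 1 of 4 neural markers (1862 to 3968) and 1 of 5 epithelial markers (366 to 706). The cultures also differed in fibroblast genes: Thy1 was at 1120.4 and 1384 in wild-type cells and 309 and 219 in knockout cells, and S100a4 at 1351 and 1226 in wild-type cells and 4106 and 4144 in knockout cells. The part of these differences in the results on genotype was not tested.

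Fibroblast transporters covered most cargo classes. Of the 151 genes, 86 (57.0%) were above the floor on all 4 arrays, 25 on some and 40 on none, against 62.2% of all 8251 genes above it on all 4. The number above the floor was 103 and 92 in wild-type cells and 96 and 99 in knockout cells. Mitochondrial carriers were detected most completely, with 16 of 20 on all arrays, followed by 10 of 13 nucleoside and nucleotide sugar carriers and 13 of 17 metal carriers. Of the sugar and monocarboxylate carriers 4 of 14 were detected on all arrays. None of 3 genes classed as vesicular or lysosomal reached the floor on any. They were Slc17a1, Slc18a3 and Slc32a1, so this count gives no reading of lysosomal carriers in general. Classes were assigned by family number, so that a few genes sit beside carriers of another cargo, such as Slc5a6, a vitamin carrier among the sugar families, and Slc6a2, a noradrenaline carrier among those for amino acids.

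**Figure D1:**
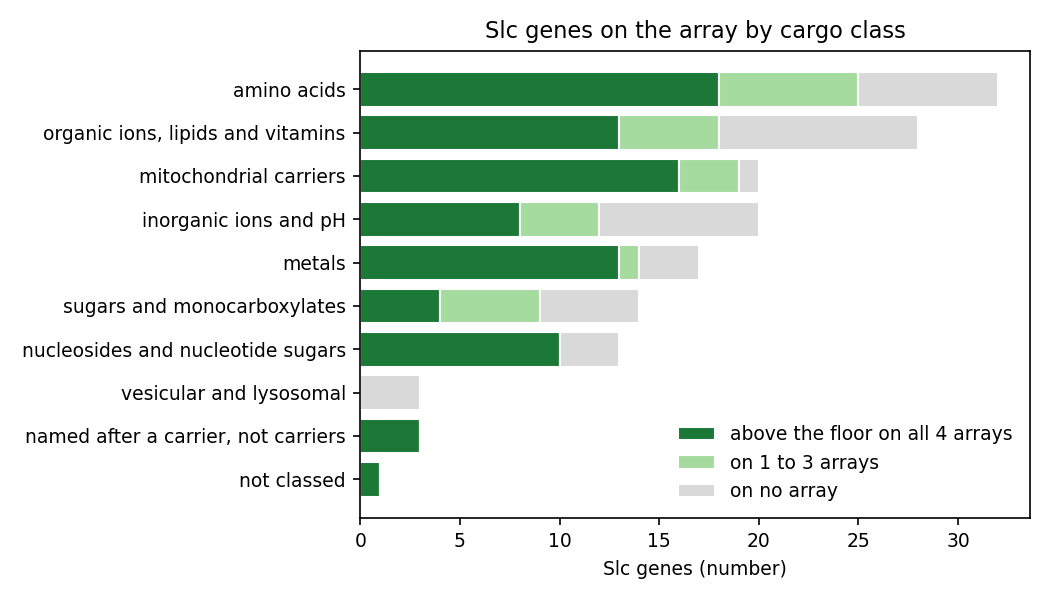
Number of Slc genes (x axis) in each cargo class (y axis), split into genes above the signal floor on all 4 arrays, on 1 to 3 arrays and on no array. Mitochondrial carriers were above it on all arrays in 16 of 20 genes, and sugar and monocarboxylate carriers in 4 of 14.

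The amino acid carriers, 32 genes, held the obligate pair of the leucine exchanger. Slc3a2 had signals of 6029 and 7318 in wild-type cells and 6823 and 5677 in knockout cells and Slc7a5, its light chain, of 5753 and 5175 in wild-type cells and 5817 and 5578 in knockout cells. Slc38a2, a sodium-coupled carrier of small neutral amino acids that cells raise under amino acid shortage, was at 4460.1 and 2476 in wild-type cells and 3478 and 2976 in knockout cells. All of these were above the floor on every array, and the lowest of the 4 Slc38a2 signals was that of wild-type cells with TNF.

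Slc1a4, an exchanger of alanine, serine and cysteine, was at 1551 and 1197 in wild-type cells and 1697 and 1335 in knockout cells. Slc6a9, a glycine carrier, was at 1915 and 1944 in wild-type cells and 1303 and 1419.6 in knockout cells, and Slc6a8, the creatine carrier, at 706 and 636 in wild-type cells and 764 and 637 in knockout cells. Slc7a1, the housekeeping carrier of arginine and lysine in many cells, was above the floor on 1 array only, the unstimulated wild-type array at 126. Slc7a11, the cystine carrier that feeds glutathione synthesis, was below it on all arrays, at no more than 68.7. The arginine carriers Slc7a2 and Slc7a3 were above the floor on all arrays and are described with the TNF and the genotype differences, respectively.

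Among sugar and monocarboxylate carriers, the glucose carrier Slc2a1 was above the floor on all arrays, at 338 and 625 in wild-type cells and 468 and 556 in knockout cells. Slc2a3, a glucose carrier best known from neurons, exceeded the floor on 1 array (96.7, unstimulated wild-type). Slc16a1, a lactate and pyruvate carrier, was near it, at 149 and 107 in wild-type cells and 91.5 and 94.3 in knockout cells. Slc50a1, a sugar carrier, was at 833 and 639.7 in wild-type cells and 953 and 789.7 in knockout cells and Slc2a8, an intracellular hexose carrier, at 534 and 378 in wild-type cells and 446 and 352 in knockout cells. The lactate exporter Slc16a3 was not analysed here.

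Both mitochondrial adenine nucleotide exchangers were detected on all arrays: Slc25a4 was at 8331 and 8363 in wild-type cells and 8367 and 7364 in knockout cells and Slc25a5 at 1103 and 1068 in wild-type cells and 1681 and 1435 in knockout cells. The Slc25a5 probe set is of a type that can match near-identical sequences, so its value is uncertain. Slc25a3, which brings phosphate into mitochondria, was nearer the floor, at 228 and 107 in wild-type cells and 183 and 257 in knockout cells. Slc25a1, the citrate carrier, was at 2148 and 2359.7 in wild-type cells and 2071 and 2196 in knockout cells and Slc25a39, a carrier of mitochondrial glutathione, at 2632 and 2734 in wild-type cells and 2682 and 2821 in knockout cells. Apart from Slc25a3, none of these was at least 2-fold apart in any comparison.

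The metal carriers detected on all arrays included Slc31a1, the copper importer, at 1444 and 1334 in wild-type cells and 1415 and 1038 in knockout cells, and Slc39a1, a zinc importer of the cell surface, at 748 and 891 in wild-type cells and 798 and 741 in knockout cells. Slc39a7, which releases zinc from the endoplasmic reticulum, was at 4611 and 4856 in wild-type cells and 3823 and 3538 in knockout cells. Slc30a1, the zinc exporter of the cell surface, and Slc11a1, the phagosomal metal carrier of macrophages, were below the floor on all arrays. The iron exporter Slc40a1 and the zinc and iron importer Slc39a14 were not analysed here.

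Ion carriers above the floor on all arrays included Slc8a1, the sodium-calcium exchanger, at 311 and 301 in wild-type cells and 313 and 331 in knockout cells, and Slc4a2, a chloride-bicarbonate exchanger, at 1653 and 1747 in wild-type cells and 1144 and 1116 in knockout cells. The sulfate carrier Slc26a2 was below the floor throughout, and Slc20a2 and Slc17a5 were not analysed here. Of the vitamin and organic ion carriers, Slc19a1 (reduced folate) was at 328 and 239.6 in wild-type cells and 349 and 369 in knockout cells, Slc23a2 (ascorbate) at 399 and 428 in wild-type cells and 579 and 601 in knockout cells, and Slc44a2 (a choline carrier family member) at 677 and 639 in wild-type cells and 660.2 and 621 in knockout cells. Slc22a5, the carnitine carrier, lay just above the floor at 122 and 94.1 in wild-type cells and 127 and 147 in knockout cells. The nucleotide sugar carriers of the Golgi, Slc35a1 (CMP-sialic acid) and Slc35a2 (UDP-galactose), were at 255 and 244 in wild-type cells and 303 and 255 in knockout cells, and at 208 and 175 in wild-type cells and 194 and 253 in knockout cells, respectively. None of these was 2-fold apart in any comparison.

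Slc11a2, an iron importer, and Slc20a1, a phosphate importer, rose with TNF. They were the only Slc genes to pass the additive fit, 2 of 111 measured, and none fell, where 1.28% of all genes rose and 0.162% fell. At an unadjusted p under 0.05 the shares of all genes were 6.46% and 7.52%. In wild-type cells 3 of 105 measured Slc genes were past 2-fold upward with TNF and 6 downward, beside 2.64% and 2.61% of all genes. In knockout cells 1 of 101 was higher and none lower, beside 1.48% and 0.409% of all genes. The median log2 difference was -0.08 in wild-type Slc genes (-0.10 over all genes) and -0.04 in knockout Slc genes (-0.04 over all genes). The count in wild-type cells depended on the scaling of the dim TNF array: with medians made equal it was 7 higher and 3 lower, and with quantile normalization 4 higher and 3 lower. Over all genes the counts moved the same way, from 156 higher and 154 lower to 282 and 68 with equal medians and to 192 and 82 with quantile normalization. Equal medians moved the median of all genes in that comparison from -0.10 to 0.18.

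Slc11a2 (divalent metal transporter 1) imports ferrous iron at the cell surface and out of endosomes. Its signals were 519 and 1466 in wild-type cells and 506 and 1091 in knockout cells. Both arrays with TNF were above both arrays without it. TNF arrays exceeded unstimulated ones 2.82-fold for wild-type and 2.16-fold for knockout, the only Slc gene at least 2-fold higher in both genotypes (1 of 95, beside 1.18% of all genes). Its TNF effect in the limma fit was 1.30 on the log2 scale (SE 0.15, adjusted p = 0.0134, from 1.07e-09 to 0.108 over 8 alternatives). Among the alternatives, the fit with equal medians gave a gene's own residual variance no weight. The low ends of such ranges, here and below, are therefore not to be read as lower bounds. A second probe set of Slc11a2 read 676 and 935 in wild-type cells and 439 and 772 in knockout cells, log2 differences of 0.47 and 0.82. It was also higher with TNF in both genotypes but under 2-fold, and with the mean of both probe sets the effect was 0.97 and missed the threshold.

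Slc20a1 (Pit1), a sodium-coupled phosphate importer, had signals of 708 and 1298 in wild-type cells and 426 and 844 in knockout cells. It was higher with TNF in each genotype and lower in knockout than in wild-type cells under each treatment. The differences with TNF were 1.83-fold and 1.98-fold, below the 2-fold line, and the effect in the limma fit was 0.93 on the log2 scale (SE 0.14, adjusted p = 0.0322, from 2.61e-05 to 0.14). Slc11a2 and Slc20a1 both missed the threshold when the fit had no intensity trend and when all probe sets of a gene were averaged.

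Slc7a2, the inducible carrier of arginine and lysine, was at 237 and 455 in wild-type cells and 274 and 515 in knockout cells. It was 1.92-fold and 1.88-fold higher with TNF in the 2 genotypes, and its effect of 0.93 did not pass (limma adjusted p = 0.101, from 0.000351 to 0.14). Slc7a7, a light chain that exports arginine in exchange for neutral amino acids, was near the floor without TNF, at 94.6 and 263 in wild-type cells and 78.3 and 124 in knockout cells. TNF gave a 2.77-fold higher signal in the wild-type, and its adjusted p in the limma fit was 0.207 (7.8e-05 to 0.312). Slc25a25, a calcium-regulated mitochondrial carrier of ATP-magnesium and phosphate, was at 638 and 1644 in wild-type cells and 503 and 767 in knockout cells, 2.58-fold and 1.52-fold higher with TNF. Its limma adjusted p of 0.0814 (5.9e-06 to 0.264) also missed. Slc2a1 and Slc25a28, a mitochondrial iron importer, were higher with TNF in each genotype by less than 2-fold, with Slc25a28 at 376 and 670.3 in wild-type cells and 382 and 508 in knockout cells.

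Promoters are shown for 3 of the genes that were higher with TNF in both genotypes and had an entry in the table, because TNF acts through factors that bind DNA, often near gene starts. The windows are the 250 bases before a gene's start in RefSeq's GRCm38.p6 annotation, written 5' to 3' along the gene's strand, with motif matches in capitals. They are chr2:129198523-129198772 (plus strand) for start 1 of Slc20a1, chr2:32424067-32424316 (minus strand) for start 3 of Slc25a25, and chr14:54417703-54417952 (minus strand) for start 2 of Slc7a7.
Slc20a1: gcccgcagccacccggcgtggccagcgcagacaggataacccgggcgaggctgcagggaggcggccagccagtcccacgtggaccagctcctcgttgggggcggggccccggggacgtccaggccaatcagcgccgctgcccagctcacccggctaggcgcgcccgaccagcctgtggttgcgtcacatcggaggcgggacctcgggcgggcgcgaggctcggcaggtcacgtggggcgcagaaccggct
Slc25a25: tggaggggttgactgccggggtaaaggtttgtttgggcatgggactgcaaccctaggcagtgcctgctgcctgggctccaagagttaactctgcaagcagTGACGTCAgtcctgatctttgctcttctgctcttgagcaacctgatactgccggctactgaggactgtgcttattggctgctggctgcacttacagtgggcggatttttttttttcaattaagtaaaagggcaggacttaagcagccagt
Slc7a7: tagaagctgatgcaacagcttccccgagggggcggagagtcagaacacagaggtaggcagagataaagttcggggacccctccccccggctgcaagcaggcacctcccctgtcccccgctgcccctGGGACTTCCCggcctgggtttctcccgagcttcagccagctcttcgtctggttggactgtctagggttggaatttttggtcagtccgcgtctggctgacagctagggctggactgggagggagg
The motifs kappaB (GGG, any 3 bases, then TTCC or TCCC), AP-1 (TGANTCA) and CRE (TGACGTCA, the cyclic AMP response element) were searched on both strands, and their matches may overlap. The Slc7a7 window held a kappaB match that begins 124 bases before the start and lies also in the overlapping window of start 3, and the windows of starts 1, 4 and 5 held none. The Slc25a25 window held a CRE match that begins 150 bases before the start, while the windows of its other 2 starts held no match. Neither Slc20a1 window held a match. Over all 32851 windows the kappaB motif was found in 8.8%, AP-1 in 6.75% and CRE in 1.55%. In the 175 windows of 124 Slc genes found in the table the shares were 11.4%, 5.14% and 1.14%. The windows shown for Slc25a25 and Slc7a7 are ones that held a match. The shares are per window, and a gene with several starts has more windows in which a match can occur. A match describes the letters in these windows only. Slc11a2, Slc7a2 and Slc7a3 had no entry.

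**Figure D2:**
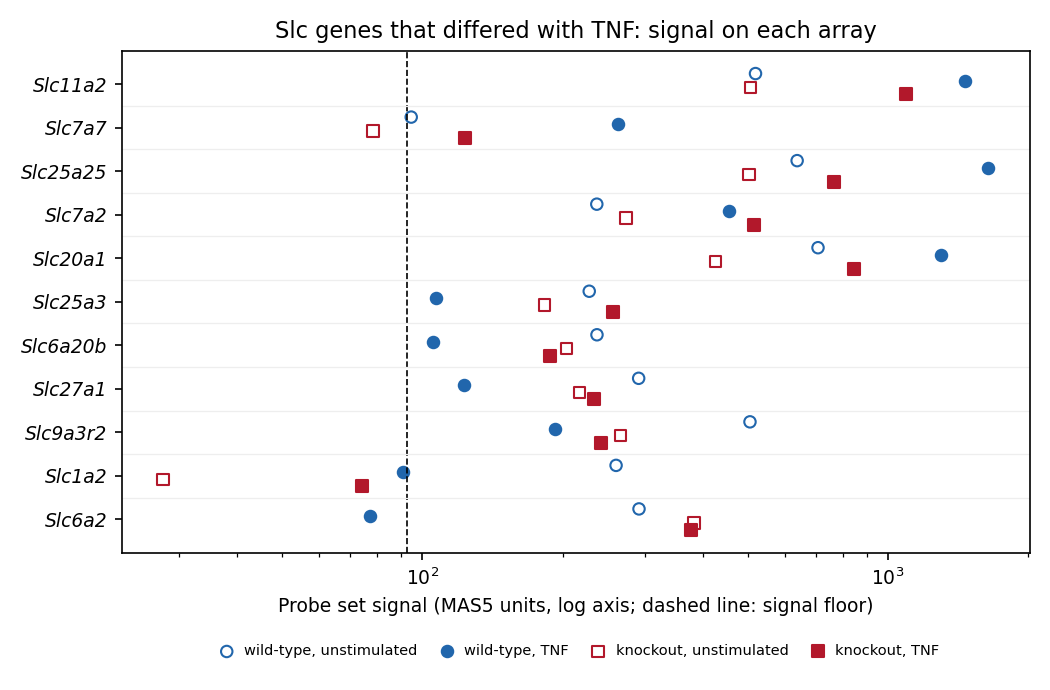
Signal on each array (log axis) of the Slc genes at least 2-fold apart with TNF in a genotype or past the threshold for TNF, and of Slc7a2; circles are wild-type and squares knockout cells, open without and filled with TNF. Slc11a2 and Slc20a1 are higher with TNF in both genotypes, and the genes chosen as 2-fold lower in wild-type cells include Slc6a2, at 292 and 77.1.

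The 6 genes at least 2-fold lower with TNF in wild-type cells were dim, and none passed the limma fit (adjusted p from 0.36 to 0.737). Slc6a2 was at 292 and 77.1 in wild-type cells and 383 and 378 in knockout cells, at least 3.16-fold lower with TNF in wild-type cells. Its second probe set disagreed, being above the floor only on the wild-type array with TNF, at 121. Slc1a2, a glutamate carrier best known from astrocytes, was above the floor on the unstimulated wild-type array alone (261 and 90.7 in wild-type cells and 27.7 and 74.3 in knockout cells), at least 2.82-fold above the TNF array. Slc9a3r2, a scaffold protein that binds carriers and is named after one, was at 505 and 193 in wild-type cells and 267 and 242 in knockout cells, a 2.62-fold difference. For these genes the knockout arrays with and without TNF lay close together or below the floor.

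Slc27a1, a fatty acid carrier, was at 291 and 123 in wild-type cells and 217 and 233 in knockout cells, 2.38-fold lower with TNF in wild-type cells. Slc6a20b, of a family of proline carriers, was at 237 and 105 in wild-type cells and 204 and 188 in knockout cells, 2.25-fold lower, and Slc25a3 was 2.13-fold lower. The 6 were chosen for a lower signal on the wild-type array with TNF, which is also the array with the lowest median signal. The part of that median in these differences was not tested. With quantile normalization or equal medians 3 such genes were left, and with the floor at the 60th percentile none.

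**Figure D3:**
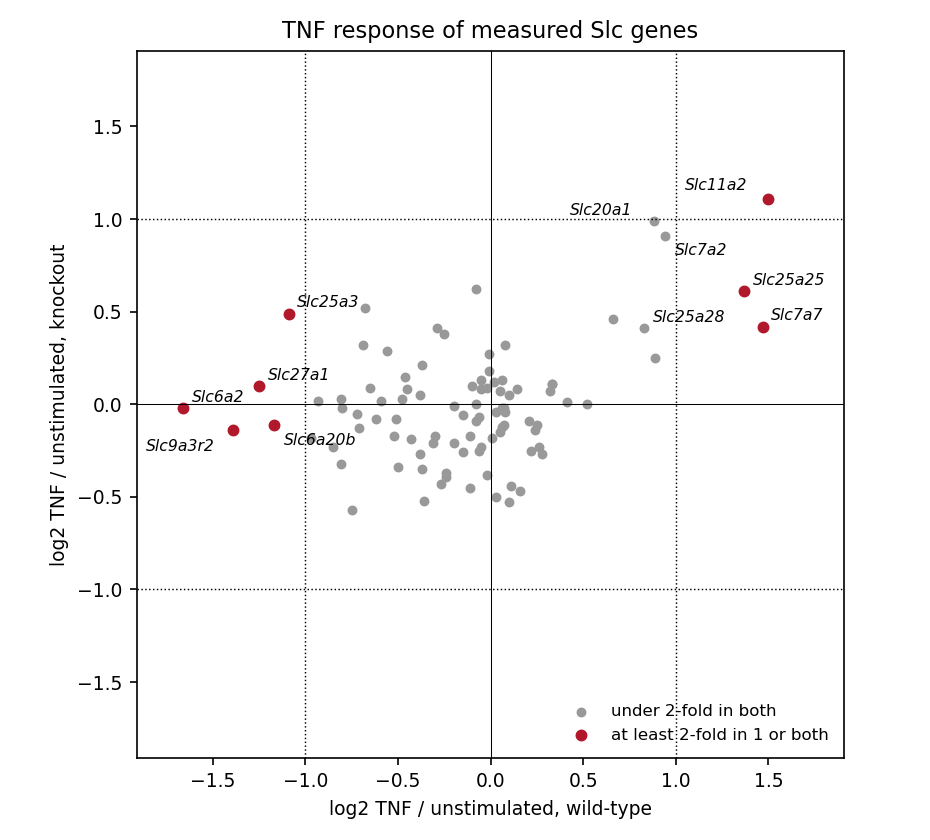
Log2 ratio of TNF to unstimulated signal in wild-type cells (x axis) and knockout cells (y axis) for the 95 Slc genes measured in both comparisons; dotted lines mark 2-fold and red points are at least 2-fold apart in 1 or both. Slc11a2 lies beyond 2-fold in both genotypes, and the red points on the left are 2-fold lower in wild-type cells and under 2-fold apart in knockout cells.

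More carriers differed between the cultures labelled wild-type and knockout than with TNF, as did genes at large. In the additive fit 9 of 111 measured Slc genes were higher in knockout cells and 12 were lower, beside 11.4% and 10.4% of all genes. By size alone, 6 of 108 lay 2-fold or more above wild-type and 4 below it without TNF (all genes 4.55% and 4.7%). With TNF 6 of 102 were higher and 5 lower (5.62% and 5.01%). Of 99 genes measured in both treatments, 3 passed 2-fold upward in both and 3 downward (3.1% and 3.07% of all genes). The shares of Slc genes were thus near those of all genes, and their median log2 difference was -0.05 without TNF and 0.11 with it (all genes -0.01 and 0.07). The arrays of the 2 treatments are separate, so the genes past 2-fold under both were read on 2 pairs of arrays. The labels do not give the cultures behind each genotype, so the 2 pairs are not replicates of genotype.

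Slc29a1 (ENT1), the equilibrative carrier of adenosine and other nucleosides, differed most. Its signals were 572 and 607 in wild-type cells and 3255 and 4063 in knockout cells. Both knockout arrays lay far above both wild-type arrays, 5.69-fold without TNF and 6.70-fold with it, and the limma effect was 2.63 on the log2 scale (SE 0.12, adjusted p = 3.75e-05, at most 0.00329 over 8 alternatives). A second Slc29a1 probe set was below the floor on all arrays, so it gives no reading of this difference.

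Slc27a3, an acyl-CoA synthetase of the fatty acid carrier family, was at 51.1 and 83.2 in wild-type cells and 396 and 361 in knockout cells. Both wild-type arrays were below the floor and both knockout arrays above it, a difference of at least 4.28-fold without TNF and at least 3.90-fold with it (limma adjusted p = 0.00151, at most 0.0602). Slc30a5, which loads zinc into the early secretory pathway, was at 281 and 209 in wild-type cells and 581 and 508 in knockout cells, 2.07-fold and 2.43-fold higher (limma effect 1.16, SE 0.20, adjusted p = 0.00911, at most 0.0191). Its second probe set read 224 and 222 in wild-type cells and 476 and 440.3 in knockout cells, the same direction and nearly the same size. Both Slc30a5 probe sets are of a type open to cross-matching or with fewer probes, so their values are uncertain.

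Slc12a2, Slc12a7 and Slc6a6, which move chloride or an osmolyte, were higher in knockout cells. The chloride-bicarbonate exchanger Slc4a2 went the other way, with a limma effect of -0.59. Slc12a2 (NKCC1), which imports sodium, potassium and chloride, was at 1018 and 1093 in wild-type cells and 2661 and 1843 in knockout cells, and Slc12a7 (KCC4), which exports potassium and chloride, at 379 and 544 in wild-type cells and 1028 and 1028 in knockout cells. They were 2.62-fold and 2.71-fold higher without TNF and under 2-fold higher with it (limma effects 1.07 and 1.18, adjusted p = 0.00555 and 0.0055, at most 0.0404 and 0.0281). Slc12a4 (KCC1), of the same family, was at 943 and 983 in wild-type cells and 786 and 773 in knockout cells and did not pass (adjusted p = 0.151). Slc6a6, the carrier of the osmolyte taurine, was at 1293 and 1322 in wild-type cells and 3220.2 and 2285 in knockout cells, 2.49-fold higher without TNF (limma effect 1.05, SE 0.14, adjusted p = 0.00362, at most 0.0356). For Slc12a2, Slc12a7 and Slc6a6, both knockout arrays were above both wild-type arrays. A second Slc6a6 probe set read 267 and 111 in wild-type cells and 352 and 271 in knockout cells, also higher in knockout cells but past 2-fold only with TNF, and with a lower wild-type signal with TNF that the first probe set did not show.

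Slc1a6, a glutamate carrier best known from Purkinje neurons, was at 550.0 and 401 in wild-type cells and 1056 and 1174 in knockout cells, 2.93-fold higher in knockout cells with TNF (limma effect 1.24, SE 0.18, adjusted p = 0.00513, at most 0.0291). Tubb3, a neural marker, was also higher in knockout cells (1662 and 2240.1 in wild-type cells and 3192 and 3809 in knockout cells), while the other neural markers were above the floor on fewer than 4 arrays. The part of neural-type cells in the Slc1a6 value was not tested. Slc38a10, of the family that carries neutral amino acids, was at 1297 and 1628 in wild-type cells and 2165 and 2330.1 in knockout cells and was higher by 0.63 on the log2 scale (adjusted p = 0.00905, at most 0.0608), and Slc25a5 was higher by 0.52 (adjusted p = 0.0232, at most 0.124). These 2 differences were under 2-fold.

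The 2 largest decreases were in a scaffold and an arginine carrier. Slc9a3r1 (NHERF1), which anchors carriers and receptors to the actin cytoskeleton, was at 1942 and 1832 in wild-type cells and 387 and 597 in knockout cells. It was 5.01-fold lower in knockout cells without TNF and 3.07-fold lower with it (limma effect -1.97, SE 0.19, adjusted p = 0.00104, at most 0.0146). Slc7a3 (CAT3), a carrier of cationic amino acids, was at 1946 and 1801 in wild-type cells and 512 and 455 in knockout cells, 3.80-fold lower without TNF and 3.96-fold lower with it (limma effect -1.96, SE 0.13, adjusted p = 0.00017, at most 0.00505). For both genes each wild-type signal was more than 2-fold above each knockout signal.

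Slc1a5 (ASCT2), a main route of glutamine uptake, was at 464 and 463 in wild-type cells and 203 and 229.9 in knockout cells, 2.29-fold and 2.01-fold lower in knockout cells (limma effect -1.10, SE 0.21, adjusted p = 0.0132, at most 0.0198). Slc25a25 and Slc7a7 were 2.14-fold and 2.13-fold lower in knockout cells with TNF only. Slc25a25 passed the fit (effect -0.72, adjusted p = 0.046, at most 0.111) and Slc7a7 did not (adjusted p = 0.21). Slc20a1, one of the genes that rose with TNF, fell by 0.68 in knockout cells (adjusted p = 0.0174, at most 0.0466). The wild-type and knockout ranges of Slc20a1 and Slc25a25 overlapped, both genes being higher with TNF as well, and those of the other 19 genes that passed did not.

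The remaining 7 decreases were under 2-fold, and the limma effects lay between -0.73 and -0.36. They included 3 metal carriers, Slc39a6 (a zinc importer, 1177 and 1569 in wild-type cells and 952 and 956 in knockout cells), Slc39a7 (effect -0.36, adjusted p = 0.0367) and Slc48a1 (a haem carrier, 949 and 912 in wild-type cells and 644 and 615 in knockout cells). Slc4a2 fell by 0.59 (adjusted p = 0.0126), Slc6a9 by 0.50 (adjusted p = 0.0178) and Slc35b2, the Golgi carrier of the sulfate donor, by 0.51 (adjusted p = 0.0325). Slc10a3 was at 789 and 982 in wild-type cells and 519.8 and 545 in knockout cells and fell by 0.73 (adjusted p = 0.0189). Over the 8 alternatives the adjusted p of Slc39a6, Slc39a7, Slc48a1, Slc4a2, Slc6a9 and Slc35b2 reached 0.122, 0.174, 0.0658, 0.0628, 0.0852 and 0.0847, and that of Slc10a3 0.0462.

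**Figure D4:**
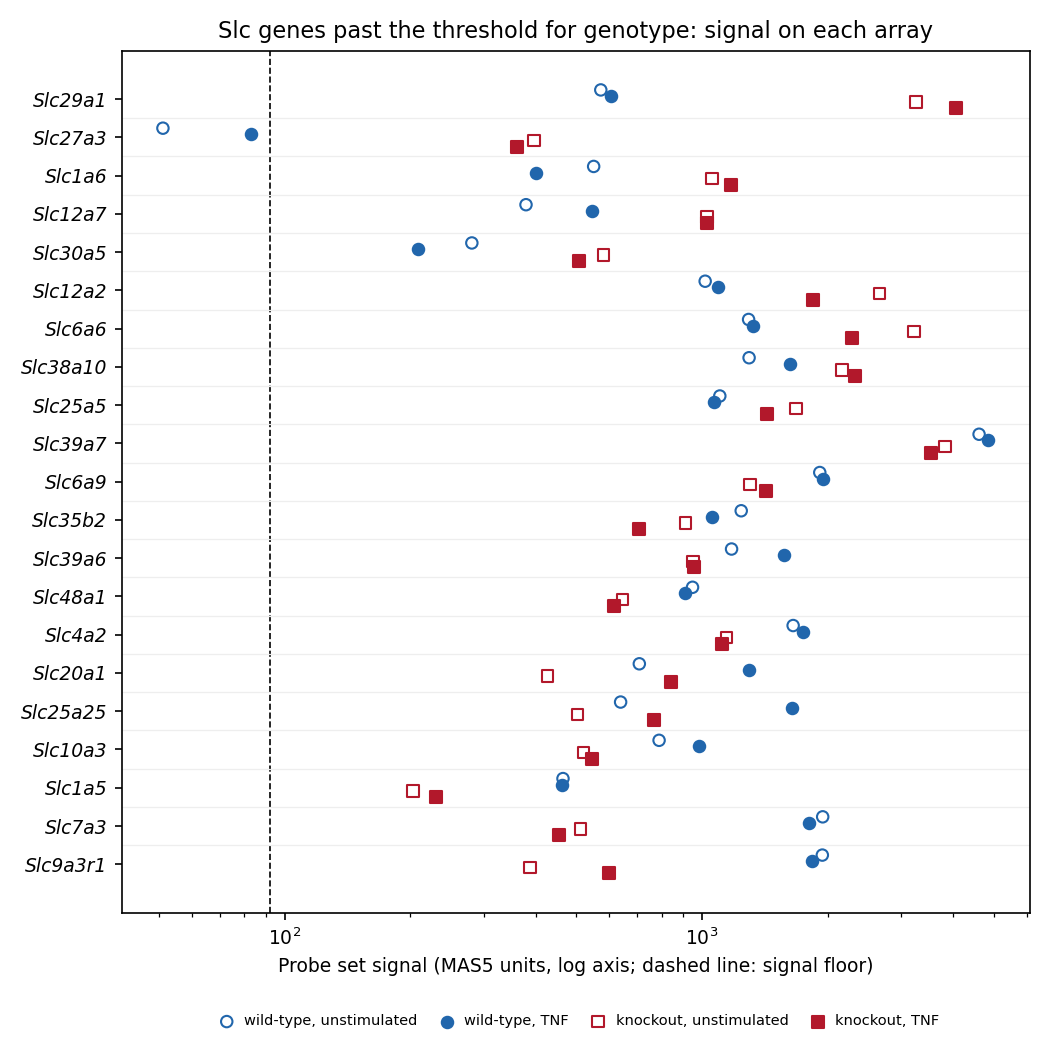
Signal on each array (log axis) of the 21 Slc genes past the threshold for genotype, ordered by effect from highest to lowest; circles are wild-type and squares knockout cells, open without and filled with TNF. Slc29a1 is at 572 and 606.5 in wild-type and 3255 and 4063 in knockout cells, and the 2 ranges overlap for Slc20a1 and Slc25a25 only.

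A further 3 genes were at least 2-fold apart by genotype in 1 treatment without passing the fit. Slc6a2 exceeded wild-type at least 4.09-fold with TNF (adjusted p = 0.0683), Slc25a3 was 2.40-fold higher with TNF (adjusted p = 0.421) and Slc1a2 was at least 2.82-fold lower without TNF (adjusted p = 0.178). By class, the genotype fit called 3 higher and 3 lower of 25 measured amino acid carriers, 2 and 2 of 12 ion carriers, 1 and 3 of 14 metal carriers, 1 and 1 of 19 mitochondrial carriers, and none of 9 sugar and monocarboxylate carriers, beside 11.4% higher and 10.4% lower of all genes. With so few genes a class, nothing is read from these counts about any class. No class was called in 1 direction only, apart from that of the genes named after carriers, with 1 of 3 lower.

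**Figure D5:**
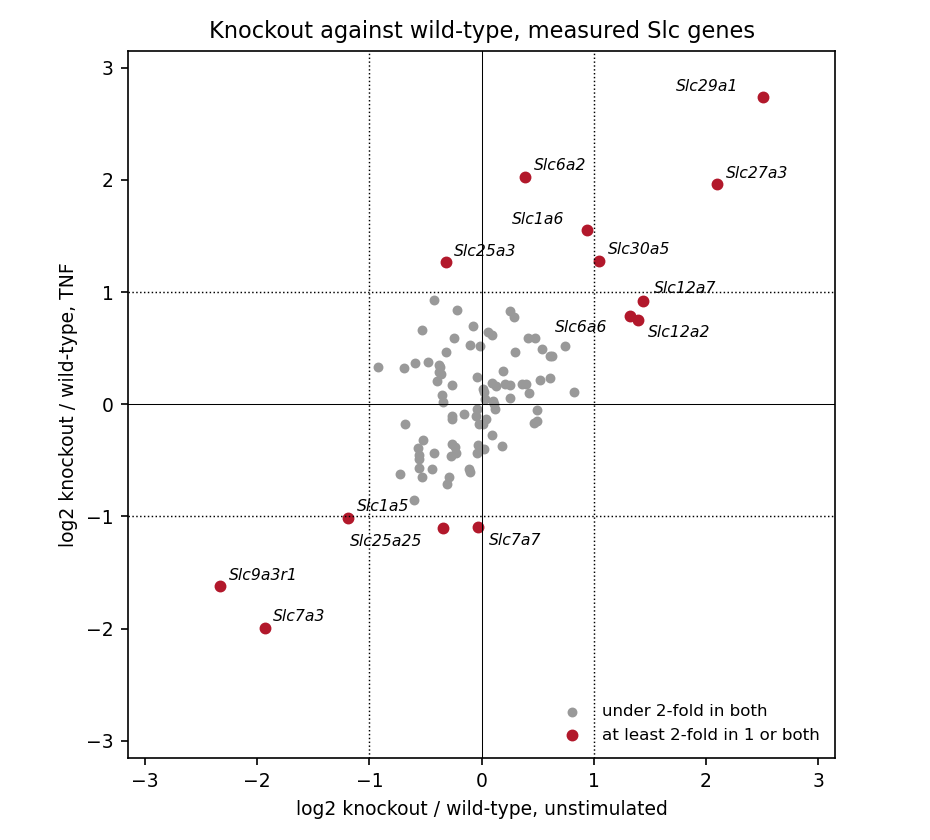
Log2 ratio of knockout to wild-type signal without TNF (x axis) and with TNF (y axis) for the 99 Slc genes measured in both comparisons; dotted lines mark 2-fold and red points are at least 2-fold apart in 1 or both. Slc29a1, Slc27a3 and Slc30a5 are 2-fold higher in both treatments, and Slc9a3r1, Slc7a3 and Slc1a5 2-fold lower.

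The size of the TNF response was then set side by side in the 2 genotypes, as the log2 TNF response of the knockout less that of the wild-type. It was at least 1 for 8 of 111 measured Slc genes and at most -1 for 1 gene, beside 2.53% and 1.13% of all genes, with a median of 0.06 (0.04 over all genes). With 1 array per group it has no test. The 5 highest values among genes above the floor on all arrays were those of Slc25a3 (1.58), Slc27a1 (1.35), Slc9a3r2 (1.25), Slc30a9 (1.19) and Slc6a20b (1.06). Slc30a9, a carrier of the zinc exporter family, was at 365 and 228 in wild-type cells and 252 and 361 in knockout cells. In all 5 the wild-type array with TNF held the lowest signal, a pattern that ranking by this value favours. Slc6a2 (1.64), Slc1a2 (1.49) and Slc16a8 (1.00), which had arrays at the floor, completed the 8. With equal medians 5 genes were left, with quantile normalization 6, and with the floor at the 60th percentile none. Over all genes the counts also moved with scaling, from 156 higher and 70 lower to 88 and 147 with equal medians. With quantile normalization they were 102 and 102.

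In the other direction, Slc7a7 was at -1.06 with an array at the floor. Its value was -0.81 with the floor at the 20th percentile and also without a floor. With quantile normalization and equal medians it was -1.22 and -1.29. The 5 lowest values among genes above the floor on all arrays were under 2-fold: Slc25a25 (-0.76), Slc25a17 (-0.64), Slc2a1 (-0.64), Slc12a2 (-0.63) and Slc6a13 (-0.55). Slc25a17, a peroxisomal carrier of nucleotide cofactors, was at 1337 and 1498 in wild-type cells and 1876 and 1354 in knockout cells, and Slc6a13, a GABA carrier, at 136 and 146 in wild-type cells and 191 and 141 in knockout cells. Slc2a1 differed with TNF by 1.85-fold in the wild-type and 1.19-fold in the knockout, upward in both. The 2 genes that rose with TNF in the fit had small values, -0.39 for Slc11a2 and 0.11 for Slc20a1.

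Genes that work with carriers were read from lists of known members. The lists were chosen with earlier results of these data known, so counts from them are descriptive and test no excess. Of 8 measured partner subunits and scaffolds, 2 were higher and 2 lower in knockout cells by the fit (11.4% and 10.4% of all genes). Bsg (basigin), which brings lactate carriers to the cell surface, was at 4416 and 4354 in wild-type cells and 7367 and 7184 in knockout cells (limma adjusted p = 0.00215). Stom (stomatin), a membrane scaffold, was at 2029 and 2376 in wild-type cells and 1352 and 1296 in knockout cells (adjusted p = 0.00675), and Slc9a3r1 was the other lower gene. Of 14 subunits of the vacuolar proton pump, which acidifies lysosomes and endosomes, 9 were lower in knockout cells by the fit and none higher (10.4% and 11.4% of all genes), with a median log2 effect of -0.46 beside 0.02 over all genes. Atp6v1a, the catalytic subunit, was at 5581 and 5050.1 in wild-type cells and 3116 and 2943 in knockout cells (adjusted p = 0.00169), and no subunit was 2-fold apart.

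Among 14 genes of the amino acid response, which raises carriers such as Slc38a2 and Slc7a11 when amino acids are short, 6 were lower and 1 higher in knockout cells by the fit, beside 10.4% and 11.4% of all genes. Atf4, its transcription factor, was at 6442 and 6332 in wild-type cells and 3745 and 4303 in knockout cells (limma adjusted p = 0.00437) and Trib3 at 2093 and 1569.9 in wild-type cells and 1028 and 848 in knockout cells (adjusted p = 0.00234). Ddit4, an inhibitor of the mTORC1 kinase, was the higher one, at 688 and 477 in wild-type cells and 1979 and 1524 in knockout cells (adjusted p = 0.000485). Among the listed genes that did not pass for genotype were Asns, Psat1 and Nupr1 (limma adjusted p = 0.0634, 0.535 and 0.912). A change of the amino acid response as a whole was not tested. With TNF, Cebpb rose (adjusted p = 0.0109), from 2871 to 7988 in wild-type cells and from 1883 to 3626 in knockout cells. Myc was higher with TNF, by 2.96-fold in the wild-type and 1.18-fold in the knockout, and missed the threshold (adjusted p = 0.291). Vegfa, Cebpb and Myc, 3 of 13 measured, were at least 2-fold lower in knockout cells with TNF, beside 5.01% of all genes.

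Of 12 measured genes of iron and metal handling none passed for TNF (1.28% of all genes higher and 0.162% lower), and 3 were lower in knockout cells by the fit (10.4% of all genes). Tfrc, the transferrin receptor that delivers iron to the endosomes where Slc11a2 acts, was at 1477 and 1729.5 in wild-type cells and 1966 and 2097 in knockout cells, and Fth1, the ferritin heavy chain, at 13701 and 14063 in wild-type cells and 13778 and 16007 in knockout cells; neither passed for TNF (limma adjusted p = 0.512 and 0.552). Mt2, a metallothionein, was 2.39-fold higher with TNF in knockout cells and 1.48-fold in wild-type cells (adjusted p = 0.0554). Cp (ceruloplasmin), which oxidises iron for export, was above the floor in wild-type cells only, at 128 and 225 in wild-type cells and 10.5 and 13.2 in knockout cells.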

How the data were processed

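The authors made the linear probe set intensities with MAS5 (per the submitters' processing notes). Not given in the sources used here: version, settings, detection calls. The deposited columns share a trimmed mean of 500.3 (2% left out at each end), so they were already on a common scale. Depth has no meaning for arrays, and their number, 1 per group, limits the precision. Groups came from the sample titles. Genes were named through the platform annotation, which gave 1 symbol to 10833 probe sets, several to 396 and none to 1193 besides 66 controls. A member candidate with several symbols (1 probe set) was left out. All 151 members matched RefSeq by Entrez identifier. For 29 members with several probe sets the brightest by mean was used, and 11 had more than 1 measured; for 7 members it is of a type open to cross-matching or with fewer probes. The floor understates the change of dim genes between 2 arrays, and it can enlarge a difference of response, as for Slc7a7.

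Signals below 92.5 were raised to it and log2 taken. The fit used limma 3.58.1 in R 4.3.3 (lmFit, eBayes with an intensity trend, 2-sided, threshold 0.05, prior degrees of freedom 5.61), and other steps pandas 2.3.3 in Python 3.11.15. With equal medians the prior degrees of freedom were infinite, so a gene's own residual variance had no weight there. The fit was tested on simulated data. Its p-values treat a true difference in TNF response as error. Named genes were all Slc genes past 2-fold or past the fit's threshold, the 5 largest response differences each way and well-known carriers. The rule also took up to 4 partner genes past 2-fold per list. Trib3, Tap1 and partner genes under 2-fold, such as Bsg, Stom, Atp6v1a, Atf4, Tfrc and Fth1, were named outside that rule. Slc25a28, Slc50a1 and others given as detected carriers were added after their values were seen, as were the motifs searched. The members and lists were chosen with earlier results of these data known. Alternatives were equal medians, quantile normalization, a floor at the 20th or the 60th percentile, no floor (log2 of signal plus 1), the mean of all probe sets, no intensity trend, and a robust trend.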

Additional observations from a re-analysis of the deposited data

Results flagged for a closer look

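Of the Slc genes above the floor on all arrays, 3 were lower with TNF in wild-type cells and higher with TNF in knockout cells, with responses at least 2-fold apart. The response of knockout minus wild-type cells was 1.58 on the log2 scale for Slc25a3, 1.35 for Slc27a1 and 1.19 for Slc30a9. In wild-type cells the log2 differences with TNF were -1.09, -1.25 and -0.68, and in knockout cells 0.49, 0.10 and 0.52. A response at least 2-fold higher in knockout cells was found in 2.53% of all genes, counted without regard to direction in each genotype. In each of the 3 the lowest signal was on the wild-type array with TNF, which has the lowest median. The way these genes were chosen favours that pattern. Slc30a9 fell to 0.96 with equal medians. With the floor at the 60th percentile Slc27a1 was at 0.0, Slc30a9 at 0.64, and Slc25a3 was no longer measured. With 1 array per group the difference of response was not tested.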

How the results depend on the processing

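Single-gene values kept their direction and side of the threshold in 357 comparisons with an alternative, fell short of the threshold in 54 and turned in 1: the response difference of Slc6a2 became -0.01 with the floor at the 60th percentile. Genes no longer measured under an alternative are left out of these counts. Slc1a2, Slc25a3, Slc6a20b and Slc7a7 were lost in this way with the floor at the 60th percentile. Counts of Slc genes at least 2-fold apart moved as follows. With TNF, wild-type cells had 3 lower under quantile normalization and 7 higher and 3 lower under equal medians, and knockout cells had 2 higher under each. Equal medians left 5 genes with a higher response in knockout cells. With the floor at the 20th percentile, wild-type cells had 5 higher and 17 lower, knockout cells 7 and 2, knockout against wild-type 14 lower without TNF and 14 higher and 8 lower with it, and response differences 19 and 4. With the floor at the 60th percentile, wild-type cells had 0 lower, knockout against wild-type 2 lower without TNF and 2 higher and 3 lower with it, response differences 0 and 0, and all 4 arrays of 56 genes exceeded the floor. Without a floor, wild-type cells had 12 lower, knockout cells 2 higher, knockout against wild-type 9 lower without TNF, and response differences 14 and 2. With the mean of all probe sets, knockout cells had 0 higher. In the limma fit, Slc genes higher with TNF numbered 4 under quantile normalization and without a floor, 8 (and 1 lower) under equal medians, and 0 with the mean of all probe sets or no intensity trend, where 5 were lower by genotype. Over all genes the fit called 89 for TNF, 152 under quantile normalization, 370 under equal medians, 153 without a floor, 38 with the mean of all probe sets and 18 with no intensity trend; for genotype it called 1347, and 883 with no intensity trend. A higher or lower floor tests fewer or more dim genes; the cause of the other changes was not tested. No paired analysis was possible because each group has 1 array, and leaving out an array leaves the fit no residual degrees of freedom. Dim genes near the floor are limited by signal over background.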

Other observations

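Other transport genes differed between the genotypes as well. Aqp1, a water channel, was at 70.7 and 23.4 in wild-type cells and 1142 and 478.5 in knockout cells, at least 12.3-fold higher without TNF and at least 5.17-fold higher with it (limma adjusted p = 0.00169). It was also 2.39-fold lower with TNF in knockout cells. Of 19 measured ABC transporters, 1 was higher and 2 were lower in knockout cells by the fit, beside 11.4% and 10.4% of all genes. Abca1, which exports cholesterol, was at 427 and 590.0 in wild-type cells and 123 and 147 in knockout cells (adjusted p = 0.00207). Abcg2, a drug exporter, was at 552 and 560.1 against 235 and 203 (adjusted p = 0.00567). Abcg1, another sterol exporter, went the other way, at 58.6 and 115 against 233 and 341 (adjusted p = 0.00469).

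Tap1 and Tap2, the pair that loads peptides for class I histocompatibility molecules, were higher with TNF in both genotypes without passing the fit. Tap2 was 2.46-fold and 2.11-fold higher (adjusted p = 0.0584) and Tap1 1.95-fold and 2.07-fold (adjusted p = 0.0811). Of 8 measured ion pumps and their subunits, 3 were higher in knockout cells by the fit and none lower, beside 11.4% and 10.4% of all genes. Fxyd5, a regulator of the sodium pump, was at 46.6 and 86.0 in wild-type cells and 369.5 and 372 in knockout cells (adjusted p = 0.00152). Fxyd1 and Atp2c1, the Golgi calcium pump, passed at adjusted p = 0.0261 and 0.038. Atp2a3, a calcium pump of the endoplasmic reticulum, was 2.28-fold lower in knockout cells without TNF.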
